A study of Rattus norvegicus with 24 samples.

Results

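Genes of calcium handling and excitation-contraction coupling, 10 of the 13458 gene symbols in the table, were followed in the tibialis anterior (TA), the dorsiflexor muscle at the front of the lower leg, of aged male Fischer 344 rats (23 ± 1 months). They were chosen by name: Atp2a1 and Atp2a2 (calcium pumps of the sarcoplasmic reticulum), Sln and Pln (small peptides that inhibit these pumps), Casq1 and Casq2 (calsequestrins, the calcium-binding proteins inside the reticulum), Cacna1s, Stac3 and Jsrp1 (voltage sensor and junction proteins) and Pvalb (parvalbumin, a soluble calcium buffer). All 10 were in the table and all passed the filter on low values, and a gene with several transcript rows was read from its row with the highest mean. In 9 rats, the common peroneal nerve of the left hindlimb was silenced with tetrodotoxin (TTX), a blocker of voltage-gated sodium channels, delivered by an implanted osmotic pump through a cuff around the nerve, and the right hindlimb had no treatment. Left TA muscles came from 3 rats once 6 to 7 days of TTX had passed (atrophy), from 3 when 9 days free of TTX had followed (recovery), and from 3 at the end of a second TTX period of 5 to 6 days (repeated atrophy). Their 9 right limbs formed the control group, and 3 sham-operated rats, 1 for each time point, had the surgery without TTX and gave a left and a right limb each, which makes 24 limbs of 12 animals. No limb came from a rat without surgery, so all groups share the operation on the left side and old age.

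In a twitch fibre, an action potential that enters the transverse tubules moves the voltage sensor, a calcium channel whose pore subunit is Cacna1s, and the sensor opens the ryanodine receptor of the facing reticulum. Calcium released from the store that calsequestrin holds starts contraction, parvalbumin binds it in fast fibres, and the pumps return it to the store. The pump and calsequestrin each come as a fast and a slow form, Atp2a1 with Casq1 in fast fibres and Atp2a2 with Casq2 in slow fibres and heart, and the TA of the rat is built mostly of fast fibres.

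The total of counts behind the values of a library was 18.9 to 30.9 M (median 26.1, M being 1000000), worked out from the step that separates neighbouring low values. It is not the number of reads sequenced, for which the paper gives a higher figure. Levels are given as counts per 1000000 (CPM). The 10 most abundant transcripts took between 24.3% and 32.8% of the counts of a control limb, and between 13.0% and 25.6% after atrophy. The median transcript stood 0.22 higher on the log2 scale after atrophy than in control and 0.20 higher after repeated atrophy. It stood 0.02 higher after recovery and 0.17 higher in sham left limbs. Over rows with a mean of at least 10 CPM, which leave out Pln alone of the members, the shift under TTX was larger. There the median change was 0.38 after atrophy, 0.40 after repeated atrophy, -0.03 after recovery and 0.20 in sham left limbs. Changes of Pln are read against the first shifts and those of the other members against the second. Skeletal fibre markers summed to between 57893 and 100427 CPM in control and between 49325 and 64285 CPM after atrophy, whereas Nppa, a defining marker of atrial heart muscle, was listed at 0 in 8 of the 9 control limbs. The left limb of atrophy animal 2 stood apart from the other atrophy limbs in Atp2a1, Casq2 and Sln, and the right limb of atrophy animal 3 had the lowest Pvalb and the highest Sln of the control limbs. Values with and without these limbs are given where a call depends on them.

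**Figure D1:**
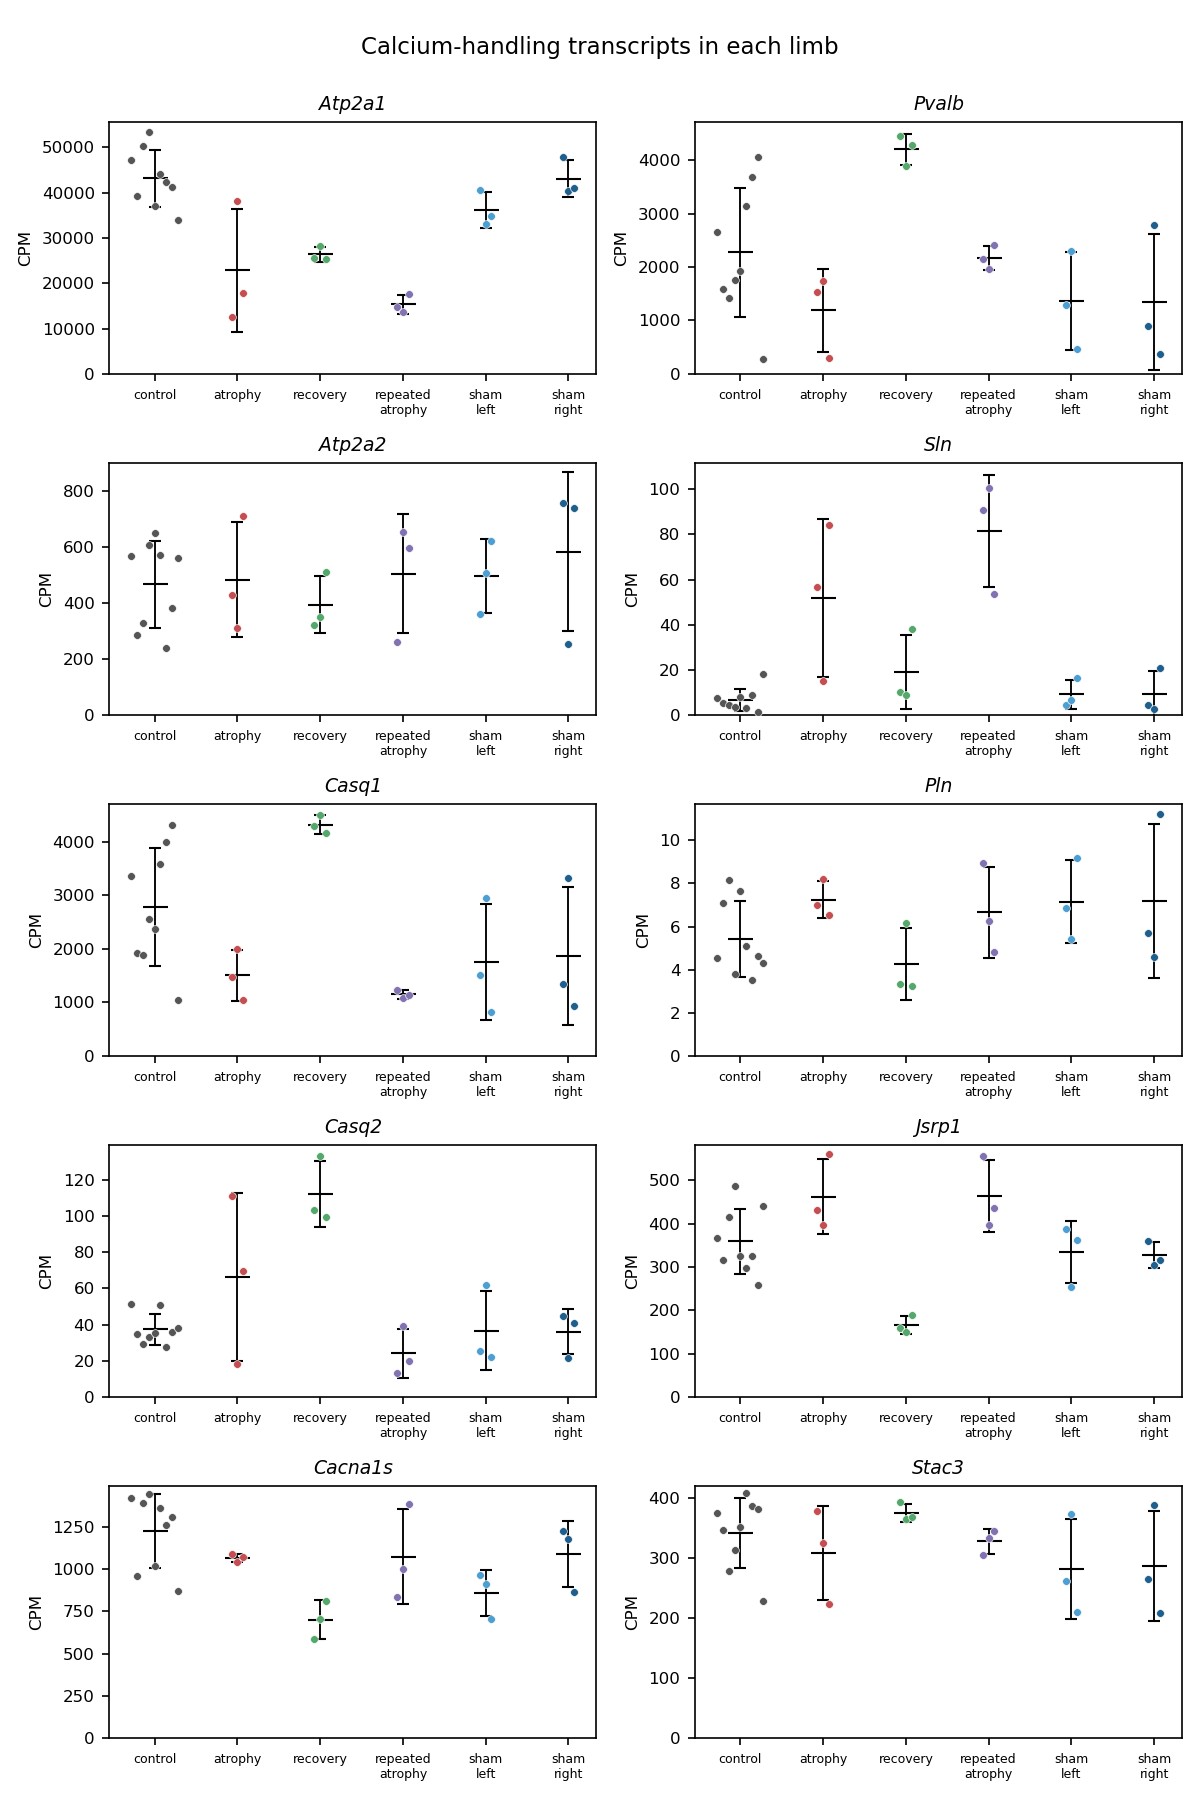
Level of each of the 10 transcripts in every limb, as CPM on a linear axis from 0, with 1 point per limb, the mean as a dash and 1 SD as bars. Groups are control (9 right limbs of TTX animals), atrophy, recovery and repeated atrophy (3 left limbs each) and the left and right limbs of 3 sham animals; Jsrp1 sits lowest after recovery, between 149.9 and 190.3 CPM, and Sln sits highest after repeated atrophy, between 53.6 and 100.4 CPM.

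Per kilobase of transcript, the control level of Atp2a1 (12494 ± 1820 CPM per kb, SD, n = 9) was followed by Pvalb (4237 ± 2242), Casq1 (1505 ± 592), Jsrp1 (310.1 ± 64.3), Stac3 (221 ± 37.6), Cacna1s (200.1 ± 35.5), Atp2a2 (109 ± 36.5), Sln (22.4 ± 16.6), Casq2 (15.3 ± 3.44) and Pln (2.40 ± 0.77). Neighbours in this order lay within 1 SD of each other for Stac3 and Cacna1s and for Sln and Casq2. Atp2a1 ranked between the 2nd and the 7th most abundant row of all 14243 in each of the 24 limbs, and Pln ranked no higher than 6708th.

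A member was called where its fold change reached 1.2 and its adjusted p was 0.05 or below (limma with Benjamini-Hochberg adjustment over all 14031 rows). After atrophy 1 of 10 members was called against control, against 22.6% of all rows (20.3% higher and 2.33% lower). After recovery 3 of 10 did, against 7.73% of all rows (4.4% higher and 3.33% lower), and after repeated atrophy 3 of 10, against 34.3% (28.1% higher and 6.24% lower). The called members differed between the stages: Sln rose after atrophy, Casq2 rose and Cacna1s and Jsrp1 fell after recovery, and Sln rose while Atp2a1 and Casq1 fell after repeated atrophy. The median log2 change of the 10 members was -0.05 at the atrophy stage, -0.02 at recovery and 0.02 at repeated atrophy. Where the animal was added as a block, so that each left limb was compared with its own right limb, the count was 0 after atrophy, when 0 of all 14031 rows were called, 0 again after recovery, when 9 rows were, and 2 (Sln and Casq1) after repeated atrophy, when 3806 rows were.

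**Figure D2:**
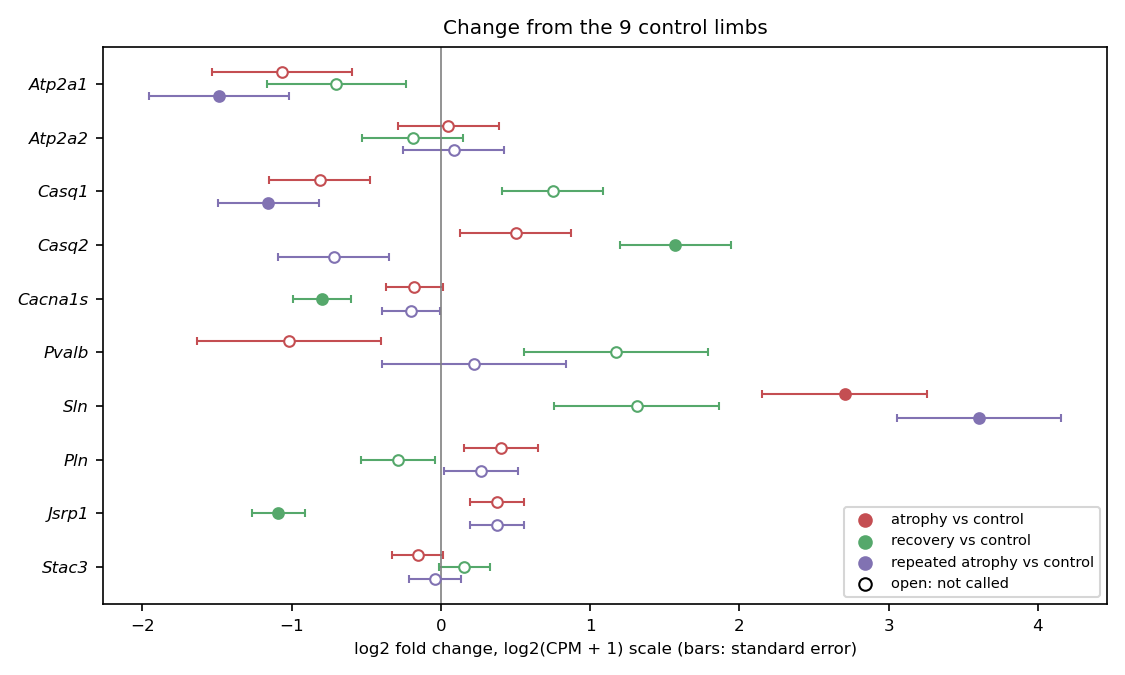
Log2 fold change of each transcript against the 9 control limbs after atrophy, recovery and repeated atrophy (3 limbs each), on the log2(CPM + 1) scale, with standard errors as bars and filled points for called genes. Sln lies farthest to the right after both periods of TTX (2.71 and 3.61), and the called falls are those of Jsrp1 and Cacna1s after recovery and of Atp2a1 and Casq1 after repeated atrophy.

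Atp2a1, the fast pump SERCA1 (chr1:181026608-181044822 in rn7, minus strand), fell after repeated atrophy. Its control limbs ranged from 33862 to 53346 CPM with a median of 42375, and the repeated atrophy limbs held 14788, 13550 and 17720 CPM. All 3 repeated atrophy limbs lay below all 9 control limbs, a log2 change of -1.49 (SE 0.47, adjusted p = 0.020). After atrophy, the limbs held 12576, 38180 and 17844 CPM. The 1st and the 3rd of these lay far under the control range and the 2nd inside it, and the comparison with control was not called (-1.06, SE 0.47, adjusted p = 0.11). Without atrophy animal 2, the log2 change was -1.51 and was called (adjusted p = 0.016). The recovery limbs held 25590, 28176 and 25299 CPM, all below the control limbs, but the log2 change of -0.70 (SE 0.47) was not called (adjusted p = 0.37). Against their own right limbs, Atp2a1 was lower in 3 of 3 recovery animals and 3 of 3 repeated atrophy animals, with mean log2 differences of -0.69 ± 0.10 and -1.63 ± 0.25 (SD). The left limb was also lower in 3 of 3 sham animals, by a mean log2 difference of -0.26 ± 0.033 (SD). With the animal as a block, the fall after repeated atrophy had an adjusted p of 0.057, and without repeated atrophy animal 1 or 2 an adjusted p of 0.055 or 0.090. After quantile normalization, which compresses the most abundant rows, it was -0.81 and was not called (adjusted p = 0.23).

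Atp2a2, the slow and cardiac pump SERCA2 (chr12:34072710-34122143, plus strand), did not separate the groups. The control limbs ranged from 240.0 to 652 CPM with a median of 563. Levels were 429, 312 and 712 CPM in the atrophy limbs, 322, 351 and 511 CPM in the recovery limbs and 261, 656 and 597 CPM in the repeated atrophy limbs. All treated limbs lay inside the control range except 1 atrophy limb and 1 repeated atrophy limb, which lay above it. The log2 changes were 0.05, -0.19 and 0.09 (SE 0.34 each), none was called, and the signs of the 1st and the 3rd turned once libraries were rescaled (-0.32 and -0.30). Of its 3 transcript rows, that of length 4283 is given here. The row of length 5691 had 32.5 ± 12.2 CPM in control (n = 9) and means of 36.8, 39.4 and 35.4 CPM at the successive stages, and the row of length 4455 had 1.01 ± 2.00 CPM in control.

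Sln, sarcolipin, a peptide that binds the pump and lowers the calcium it moves for each ATP (chr8:54243542-54247792, plus strand), rose after both periods of TTX. Control limbs ranged from 1.39 to 18.2 CPM with a median of 5.20. The atrophy limbs held 56.5, 14.9 and 84.1 CPM, and the repeated atrophy limbs 90.6, 100.4 and 53.6 CPM. Repeated atrophy did not overlap with control (log2 change 3.61, SE 0.55, adjusted p = 1.9e-04), whereas the limb of atrophy animal 2 lay within the control range (2.71, SE 0.55, adjusted p = 0.0067). The recovery limbs held 10.1, 8.88 and 38.0 CPM, with 1 limb above all controls, and the log2 change of 1.31 was not called (adjusted p = 0.14). Among sham animals, the one of the repeated atrophy time point held 16.5 CPM on the left and 21.01 CPM on the right, the latter above all control limbs, and the other sham limbs between 2.81 and 6.82 CPM. The left limb was above its own right limb in 3 of 3 TTX animals at each stage, by 1.93 ± 0.98, 1.80 ± 2.05 and 3.90 ± 0.30 (log2, SD), although in 1 recovery animal by only 0.0053. With the animal as a block, the rise kept its call after repeated atrophy (adjusted p = 0.0035) and not after atrophy (1.93, adjusted p = 0.18). It also lost the call after atrophy without atrophy animal 1 (2.49, adjusted p = 0.090) or without atrophy animal 3 (2.21, adjusted p = 0.057).

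Pln, phospholamban, the inhibitor best known from heart and slow fibres (chr20:32629811-32639560, plus strand), stayed near the lower end of measurement. Its control range was 3.50 to 8.17 CPM. Pln stood at 7.00, 8.18 and 6.54 CPM in the atrophy limbs, at 3.34, 6.18 and 3.26 CPM in the recovery limbs and at 8.96, 6.24 and 4.81 CPM in the repeated atrophy limbs, so that every group overlapped with control. None of its 3 log2 changes (0.40, -0.29 and 0.27, SE 0.25) was called.

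Casq1, the fast calsequestrin (chr13:84670648-84680340, minus strand), fell after repeated atrophy. Control limbs ranged from 1053 to 4314 CPM with a median of 2563, and the repeated atrophy limbs held 1238, 1081 and 1136 CPM. Of the 9 control limbs, the right limb of atrophy animal 3 alone was as low, and the log2 change was -1.16 (SE 0.34, adjusted p = 0.013; -0.87, adjusted p = 0.034 with the animal as a block). With the 12 right limbs of all animals as control, the change was -0.99 and was not called (adjusted p = 0.057), nor was it without repeated atrophy animal 2 (-1.11, adjusted p = 0.062). Casq1 after atrophy stood at 1477, 2002 and 1051 CPM (log2 change -0.81, SE 0.34, adjusted p = 0.089), which was called without atrophy animal 2 (-1.04, adjusted p = 0.049) or without the right limb of atrophy animal 3 (-0.97, adjusted p = 0.014). The recovery limbs held 4284, 4501 and 4164 CPM, close to or above the highest control limb, and their log2 change of 0.75 was not called (adjusted p = 0.17).

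The control limbs of Casq1 differed with the time at which the animal was taken. The right limbs of the recovery animals held 3588, 3993 and 4314 CPM, the 3 highest of the 9. The right limbs of the atrophy animals held 3363, 2362 and 1053 CPM and those of the repeated atrophy animals 1923, 1877 and 2563 CPM. Against their own right limbs, the recovery limbs were only 0.13 ± 0.16 higher on the log2 scale (SD, higher in 2 of 3), while the repeated atrophy limbs were 0.87 ± 0.28 lower in 3 of 3. Among the sham animals, the one taken at the recovery time point had the highest Casq1 in both limbs, 2941 CPM on the left and 3328 CPM on the right. The other sham limbs held 1514 and 1341 CPM at the atrophy time point and 819.8 and 934 CPM at the repeated atrophy time point. Time point and the animals' own level cannot be told apart with 1 sham animal at each.

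Casq2, the slow and cardiac calsequestrin (chr2:189526003-189582277, plus strand), rose after recovery. Control limbs ranged from 27.7 to 51.5 CPM with a median of 35.2, and the recovery limbs held 103, 133 and 99.6 CPM. All 3 recovery limbs lay above all control limbs (log2 change 1.57, SE 0.37, adjusted p = 0.018), and each was above its own right limb, by 1.56 ± 0.62 (SD). The sham animal taken at the recovery time point also held more on the left than on the right, 61.8 CPM against 21.8 CPM (1.46 on the log2 scale), its left limb lying above the control range and below the recovery limbs. The other sham animals held less on the left, 25.7 CPM against 45.1 CPM and 22.4 CPM against 41.2 CPM. With the animal as a block the adjusted p was 0.13, and with any 1 of the 3 recovery limbs left out it was between 0.060 and 0.081. The atrophy limbs held 111, 18.3 and 69.6 CPM, on both sides of the control range, with a log2 change of 0.50 (SE 0.37) that was not called. It was 1.24 without atrophy animal 2 (adjusted p = 0.0051, called) and -0.03 without atrophy animal 1. The repeated atrophy limbs held 13.4, 39.0 and 19.9 CPM (-0.72, SE 0.37, adjusted p = 0.15; -1.09, adjusted p = 0.024 once libraries were rescaled by trimmed mean of log ratios, TMM). Fibroblast markers stood higher in the same recovery limbs: 4 of 5 were called, and their summed level was between 1022 and 1918 CPM against 194 to 528 CPM in control, with none of the 5 at 0. Macrophage markers, of which 3 of 6 were called, summed to between 91.6 and 195 CPM against 34.1 to 127 CPM. Of 4 cardiac markers, 1 was called, Nppa, by 0.27 on the log2(CPM + 1) scale. That row was at 0 in 8 of 9 control limbs, so the change lies near the lower end of measurement. The summed level of the 4 was between 18.1 and 24.3 CPM after recovery against 21.9 to 60.9 CPM in control. The part of these cells in the members' changes after recovery was not tested.

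Cacna1s, the pore subunit and voltage sensor of the skeletal L-type channel (chr13:47493949-47564195, plus strand), fell after recovery. In control it ranged from 868 to 1445 CPM with a median of 1310, and the recovery limbs held 585, 705 and 813 CPM. All 3 recovery limbs lay below all controls (log2 change -0.80, SE 0.19, adjusted p = 0.019) and below their own right limbs, by 0.91 ± 0.27 on the log2 scale (adjusted p = 0.10 with the animal as a block). The call was lost without recovery animal 1 (-0.67, adjusted p = 0.14) or recovery animal 2 (-0.81, adjusted p = 0.067). After atrophy the limbs held 1088, 1041 and 1072 CPM and after repeated atrophy 836, 1002 and 1382 CPM, all but 1 of them within the control range and neither group called (-0.18 and -0.20, SE 0.19). Once libraries were rescaled by TMM, these changes were larger, -0.54 and -0.58, and still not called (limma, adjusted p = 0.11 and 0.052). The change after recovery was then -0.82 (adjusted p = 0.020). In the sham animals the left limbs held 964, 909.8 and 703 CPM and the right limbs 1225, 1178 and 864 CPM. The left limb was lower in 3 of 3 sham animals, by 0.34 ± 0.04 on the log2 scale, with an unadjusted p of 0.011 and an adjusted p of 0.94 (limma with the animal as a block).

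Jsrp1, a junctional protein of the reticulum also called JP-45, which binds the voltage sensor and calsequestrin (chr7:8901631-8906055, plus strand), fell after recovery and had the smallest adjusted p of the 10 members there. In control it ranged from 258 to 487 CPM with a median of 326, and the recovery limbs held 159, 149.9 and 190.3 CPM. The recovery limbs did not overlap with control (log2 change -1.09, SE 0.18, adjusted p = 0.0028), and each lay below its own right limb, by 0.82 ± 0.35 (SD, adjusted p = 0.13 with the animal as a block). The sham animal of that time point held 253 CPM on the left and 305 CPM on the right (-0.27), and the left limb was the higher in the other sham animals (0.10 and 0.20). The call stood in each of 12 fits that left out 1 limb, with adjusted p between 0.0016 and 0.025. After atrophy the limbs held 430.4, 397 and 559.9 CPM and after repeated atrophy 556, 397 and 436 CPM. Both groups overlapped with the upper part of the control range, and their log2 changes of 0.37 and 0.38 (SE 0.18) were not called and became 0.01 and -0.01 once libraries were rescaled.

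Stac3, an adaptor needed for the voltage sensor to reach and work in the membrane (chr7:63343186-63350590, plus strand), was not called in any comparison. Its control range was 228 to 409 CPM. Stac3 stood at 378, 325 and 224 CPM in the atrophy limbs, at 393, 366 and 368 CPM in the recovery limbs and at 305, 333 and 346 CPM in the repeated atrophy limbs. Its log2 changes of -0.16, 0.16 and -0.04 (SE 0.17) were small beside its control range. They became -0.52, 0.13 and -0.42 once libraries were rescaled by TMM, and none was called. The left limbs of the sham animals differed from the right by -0.02 ± 0.04 (log2, SD).

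Pvalb, the calcium buffer of fast fibres (chr7:109773302-109785772, minus strand), ranged widely in control, from 284 to 4058 CPM with a median of 1925. The atrophy limbs held 1540, 1735 and 291 CPM, the recovery limbs 4445, 3887 and 4289 CPM and the repeated atrophy limbs 2150, 1968 and 2413 CPM. The recovery limbs lay close to or above the highest control limb, and the log2 changes of -1.02, 1.17 and 0.22 (SE 0.62) were not called. As with Casq1, the right limbs of the recovery animals were the 3 highest controls, at 3141, 3688 and 4058 CPM, and the sham animal of that time point was the highest sham animal, at 2306 CPM on the left and 2787 CPM on the right. The lowest control limb, 284 CPM, belonged to the animal with the lowest atrophy limb, 291 CPM. Within animals, the recovery limbs differed by 0.22 ± 0.24 and the repeated atrophy limbs by 0.46 ± 0.02 (log2, SD), higher than the right limb in 3 of 3 animals each (adjusted p = 0.62 and 0.16 with the animal as a block). Without the right limb of atrophy animal 3, Pvalb was called after atrophy (-1.36, adjusted p = 0.028), and without the left limb of the same animal its change was -0.19 (adjusted p = 0.88).

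**Figure D3:**
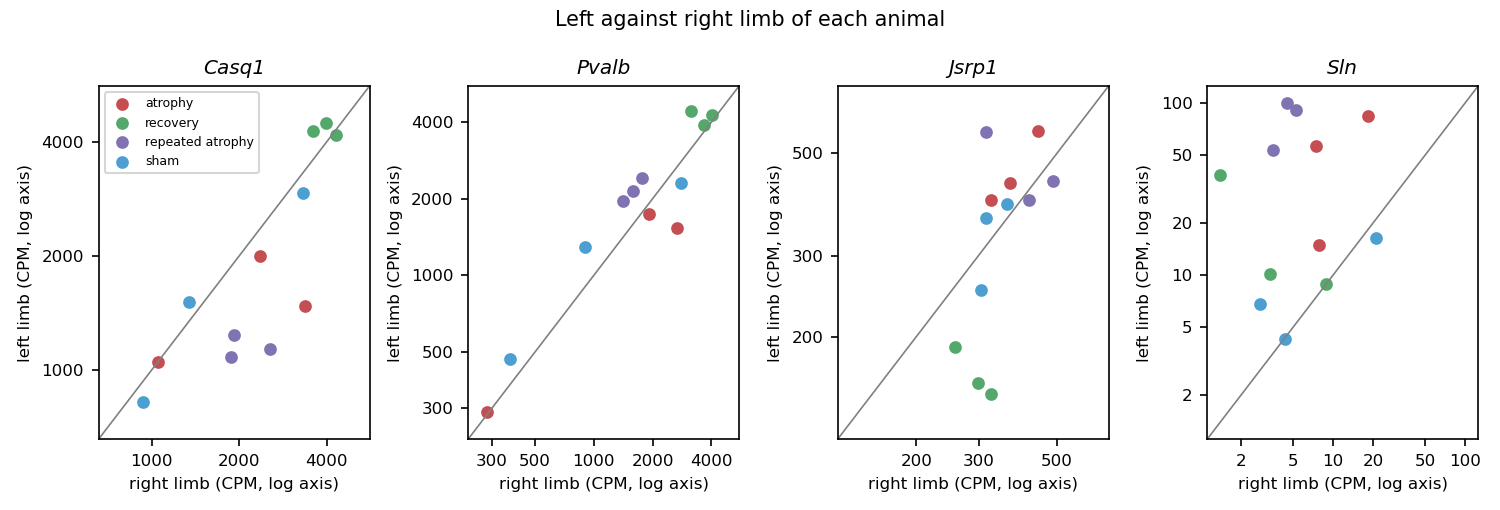
Level in the left limb against the right for Casq1, Pvalb, Jsrp1 and Sln, in CPM on log axes, with 1 point per animal and a grey line of equality. The 3 recovery animals lie at the top of the line for Casq1 and Pvalb, with right limbs between 3588 and 4314 CPM and between 3141 and 4058 CPM, and below the line for Jsrp1; Sln lies above the line after repeated atrophy.

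Across the 9 control limbs, which came from 9 animals, Casq1 and Pvalb were correlated, and each with Stac3. Of 45 pairs of members, 4 passed adjustment for both measures (exact permutation test, two-sided, Benjamini-Hochberg over 45 pairs). Casq1 and Pvalb had r = 0.963 (exact permutation p = 8.3e-06, adjusted 3.7e-04) and rho = 0.983 (exact permutation p = 5.0e-05, adjusted 0.0022), with r = 0.976 without the 2 limbs farthest from the median of Casq1. Pvalb and Stac3 had r = 0.934 (exact permutation p = 2.5e-04, adjusted 0.0050) and rho = 0.917 (exact permutation p = 0.0013, adjusted 0.020), with r = 0.858 without 2 limbs. Casq1 and Stac3 had r = 0.909 (exact permutation p = 0.0011, adjusted 0.012) and rho = 0.883 (exact permutation p = 0.0031, adjusted 0.035), with r = 0.793 without 2 limbs. Atp2a1 and Cacna1s were the 4th pair, with r = 0.902 (exact permutation p = 3.3e-04, adjusted 0.0050) and rho = 0.950 (exact permutation p = 3.5e-04, adjusted 0.0079), and r = 0.844 without 2 limbs. With the mean of each time point taken out, a check chosen after seeing the data, r was 0.965 for Casq1 and Pvalb (exact permutation within time points, p = 0.0046, the smallest that 216 orders can give) and 0.990 for Atp2a1 and Cacna1s (exact permutation p = 0.0093). Neither passed adjustment over the 45 pairs (adjusted exact permutation p = 0.21), and without the right limb of atrophy animal 3 they were 0.930 and 0.988. For Stac3 the same value was 0.915 with Pvalb and 0.853 with Casq1 (exact permutation p = 0.088 and 0.16), and 0.266 and 0.152 without that limb, so that within time points the relations of Stac3 rest on 1 limb.

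The 250 bases upstream of the annotated start (RefSeq, GRCr8, read 5′ to 3′ on the strand of the gene) are shown for Casq1, Pvalb and Stac3, which were correlated over the 9 control limbs, and for Casq2, the paralog of Casq1, whose r with Casq1 was 0.151, rho 0.0833 (exact permutation p = 0.7 and 0.84, adjusted 0.98 and 0.95). Capitals mark CANNTG, the E-box that basic helix-loop-helix factors such as MyoD can bind, and in Casq2 also a match to the MEF2 consensus. They lie at chr13:87212711-87212960 (minus strand), chr7:111666290-111666539 (minus), chr7:65228225-65228474 (plus) and chr2:192214306-192214555 (plus) in GRCr8, a newer build than the rn7 of the expression table.
Casq1: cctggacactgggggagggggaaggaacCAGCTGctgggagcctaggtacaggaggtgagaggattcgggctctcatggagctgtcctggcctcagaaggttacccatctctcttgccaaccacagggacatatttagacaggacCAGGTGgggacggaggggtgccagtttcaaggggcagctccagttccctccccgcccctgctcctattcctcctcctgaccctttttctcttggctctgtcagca
Pvalb: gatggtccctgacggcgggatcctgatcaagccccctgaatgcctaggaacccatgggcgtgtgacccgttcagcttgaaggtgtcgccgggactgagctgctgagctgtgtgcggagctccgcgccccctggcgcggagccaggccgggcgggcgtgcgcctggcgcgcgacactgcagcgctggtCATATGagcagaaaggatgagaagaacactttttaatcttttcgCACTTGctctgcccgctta
Stac3: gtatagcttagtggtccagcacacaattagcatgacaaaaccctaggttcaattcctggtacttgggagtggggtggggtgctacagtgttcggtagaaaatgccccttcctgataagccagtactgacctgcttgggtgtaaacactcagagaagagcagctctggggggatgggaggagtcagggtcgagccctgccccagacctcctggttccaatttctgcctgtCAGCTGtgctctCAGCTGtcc
Casq2: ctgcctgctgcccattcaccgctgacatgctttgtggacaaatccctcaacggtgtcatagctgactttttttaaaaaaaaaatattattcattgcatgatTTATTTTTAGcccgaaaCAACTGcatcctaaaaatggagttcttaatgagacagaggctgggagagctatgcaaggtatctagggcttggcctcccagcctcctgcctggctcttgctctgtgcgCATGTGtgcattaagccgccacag
Of the 10 members, 9 had an upstream sequence, all but Sln. CANNTG, a palindrome that reads the same on both strands, was in 9 of 9, against 65.2% of all upstream sequences of this length. CAGCTG, one of its forms, was in 5 of 9 (Atp2a1, Casq1, Cacna1s, Jsrp1 and Stac3), against 11.9% of all. The MEF2 consensus, searched on both strands, was in 1 of 9 (Casq2, TTATTTTTAG), against 3.07% of all.

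The ratio of slow to fast paralog was compared by an exact permutation test over all 220 splits of 3 and 9 limbs (two-sided, smallest p 0.0045, adjusted over 9 comparisons). Per length, Atp2a2 stood at 0.922% of Atp2a1 in control at the median (0.457% to 1.42%). It stood at 2.76%, 0.659% and 3.22% in the atrophy limbs, 1.02%, 1.01% and 1.63% in the recovery limbs and 1.43%, 3.91% and 2.72% in the repeated atrophy limbs, which all lay above the control range, the lowest by a narrow margin and within the sham left range (0.720% to 1.45%). On the log2(CPM + 1) scale the ratio was 1.57 higher after repeated atrophy (exact permutation p = 0.0045, adjusted 0.020), with 1.11 after atrophy (exact permutation p = 0.050, adjusted 0.070; 1.84, adjusted 0.033 without atrophy animal 2) and 0.51 after recovery (exact permutation p = 0.19, adjusted 0.21). The higher ratio went with a fall of Atp2a1, while Atp2a2 lay within or near its control range. Within animals the ratio was higher on the left in 3 of 3 after repeated atrophy (1.91 ± 0.86, log2, SD).

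Casq2 stood at 1.12% of Casq1 per length in control at the median (0.522% to 2.74%). It stood at 5.65%, 0.686% and 4.98% in the atrophy limbs, 1.81%, 2.22% and 1.80% in the recovery limbs and 0.817%, 2.72% and 1.32% in the repeated atrophy limbs. None of the 3 log2 differences, 1.31, 0.82 and 0.44, passed adjustment (exact permutation p = 0.045, 0.055 and 0.42, adjusted 0.070, 0.070 and 0.42). Without atrophy animal 2, the limb below the control median, the difference after atrophy was 2.28 (adjusted exact permutation p = 0.033), and without the right limb of atrophy animal 3 the difference after recovery was 0.99 (adjusted exact permutation p = 0.027). Sln stood at 7.02 times Pln per length in control at the median (2.26 to 32.1 times). It stood at 61.1, 13.7 and 97.3 times after atrophy, 22.9, 10.9 and 88.2 times after recovery and 76.5, 122 and 84.3 times after repeated atrophy, where all limbs lay above the control range. On the log2 scale it was 2.30 higher after atrophy (exact permutation p = 0.014, adjusted 0.041), 1.60 after recovery (exact permutation p = 0.045, adjusted 0.070) and 3.34 after repeated atrophy (exact permutation p = 0.0045, adjusted 0.020). These sizes depend on the pseudocount, and with 10 in place of 1 they were 1.57, 0.82 and 2.35, with the same calls. With any 1 repeated atrophy limb left out, Atp2a2 to Atp2a1 and Sln to Pln after repeated atrophy each had an adjusted exact permutation p of 0.055. Neither call stood, and this adjusted value depends on the other comparisons adjusted with it. The Sln to Pln difference after recovery passed without the right limb of atrophy animal 3 (1.82, adjusted exact permutation p = 0.033). The difference after atrophy lost its call without atrophy animal 1 (2.07, adjusted exact permutation p = 0.098) or animal 3 (1.74, adjusted exact permutation p = 0.098), and without any 1 of 7 control limbs (2.14 to 2.37, adjusted exact permutation p = 0.055). None of the 3 ratios differed between sham left and control limbs (exact permutation p = 0.33, 0.17 and 0.89, not adjusted).

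**Figure D4:**
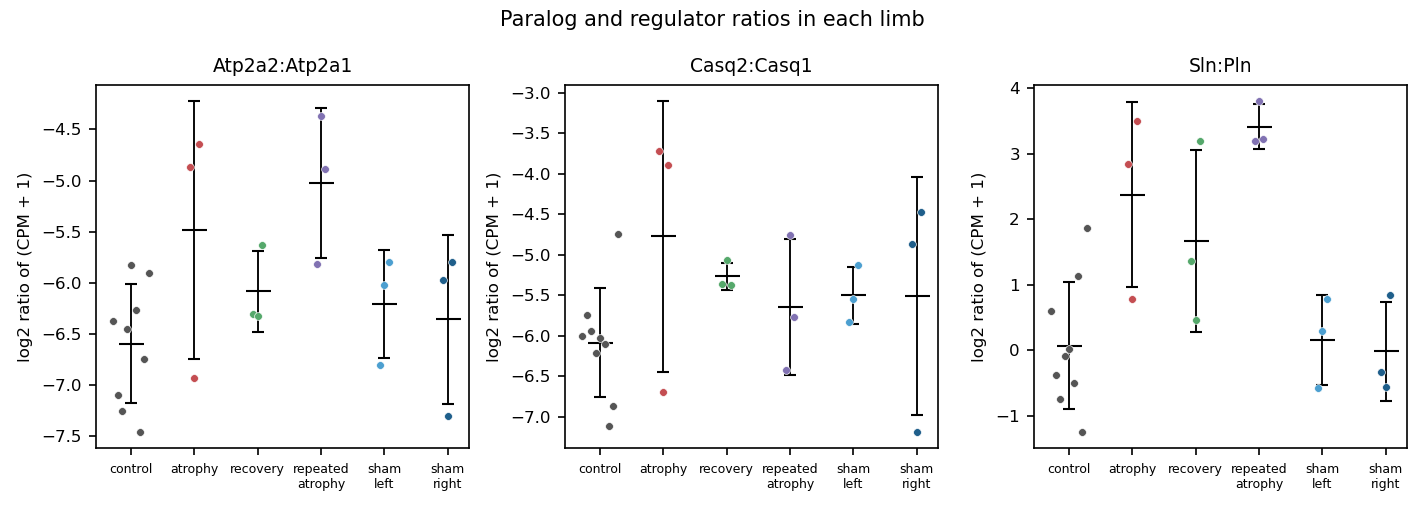
Log2 ratio of (CPM + 1) of Atp2a2 to Atp2a1, Casq2 to Casq1 and Sln to Pln in every limb, with the mean as a dash and 1 SD as bars, for control (9 limbs) and the other groups (3 limbs each). All repeated atrophy limbs lie above all control limbs for Atp2a2 to Atp2a1 and for Sln to Pln, and 1 atrophy limb, that of animal 2, lies apart from the other two in each panel.

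Treated stages were also compared with each other in the same fit. Between atrophy and recovery 2 of 10 members were called, against 17.9% of all rows: Casq1 was 1.56 higher (SE 0.41, adjusted p = 0.019) and Jsrp1 1.46 lower (SE 0.22, adjusted p = 0.0033) after recovery. Rescaling by TMM added Casq2 (1.41, adjusted p = 0.038), which moved the split from 1 higher and 1 lower to 2 higher and 1 lower. Pvalb was 2.19 higher (SE 0.75) and just missed the call (adjusted p = 0.052). Between recovery and repeated atrophy 4 of 10 were called, against 27.2% of all rows: Casq1 (-1.91, adjusted p = 0.0040) and Casq2 (-2.29, adjusted p = 0.0026) fell, and Sln (2.30, adjusted p = 0.018) and Jsrp1 (1.46, adjusted p = 7.7e-04) rose. Casq1 lost its call between atrophy and recovery without recovery animal 1, recovery animal 2 or atrophy animal 3 (adjusted p between 0.059 and 0.097), and without atrophy animal 2 there were 4 calls, with 3491 rows called in place of 2505. Sln lost its call between recovery and repeated atrophy without recovery animal 1, recovery animal 2 or repeated atrophy animal 2 (adjusted p between 0.062 and 0.086). With the animal as a block, where the comparison is of left minus right differences, 0 members were called in either, and 2 and 12 of all 14031 rows. There the change of Casq1 was 0.60 after recovery against atrophy and -0.99 after repeated atrophy against recovery (adjusted p = 0.70 and 0.19). That of Jsrp1 was -1.11 and 1.02 (adjusted p = 0.53 and 0.13).

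Between the periods of TTX, 0 of 10 members were called, against 0.0356% of all rows (limma), and 1 had an unadjusted p below 0.05, against 6.3% of all rows. This was Casq2, 1.22 lower after repeated atrophy than after atrophy (SE 0.46, adjusted p = 0.61), which was called without atrophy animal 2 (-1.95, adjusted p = 0.048). Sln was 0.90 higher (SE 0.67), Atp2a1 0.42 lower (SE 0.57) and Jsrp1 differed by less than 0.01 (SE 0.22), none of them called. In sham animals, 0 of 10 members were called between left limbs and control or between left and right limbs, against 0% of all rows in both (limma), and Cacna1s alone had an unadjusted p below 0.05 in each, against 13.8% and 4.27% of all rows. Sham left limbs held between 32984 and 40606 CPM of Atp2a1, 4.27 and 16.5 CPM of Sln, and 253 and 388 CPM of Jsrp1, each overlapping with control.

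Around the 10 members, 67 further genes of calcium handling from 5 lists had a row that was tested. Against control, 16 rose and 10 fell at the atrophy stage, 5 rose and 1 fell at recovery, and 20 rose and 17 fell at repeated atrophy, beside the 22.6%, 7.73% and 34.3% of all rows given above. Rescaled libraries, in which 1358, 1693 and 3539 of all 14031 rows were called, gave 10 higher and 14 lower, 5 higher and 2 lower, and 11 higher and 22 lower. Quantile normalization gave 10 higher and 16 lower, 2 higher and 2 lower, and 10 higher and 21 lower. The count after recovery was 2 higher and 0 lower with a pseudocount of 0.1 (939 of all rows called), 1 and 1 with a pseudocount of 10 (784), 3 and 3 with all 12 right limbs as control (1202), and 3 and 4 with only those 2 groups in the fit (1439), so that its balance of higher and lower depends on the setting. With the animal as a block 0, 0 and 37 were called, beside 0, 9 and 3806 of all rows. Without atrophy animal 1 or atrophy animal 3, 0 were called after atrophy, when 4 and 0 of all rows were, and without recovery animal 1, recovery animal 2 or 1 of the control limbs (the right limb of repeated atrophy animal 2), 0 after recovery, when 207, 487 and 686 of all rows were. Without recovery animal 3 the count after recovery was 1, and without any 1 of the other 8 control limbs between 2 and 5. After atrophy, 14 rose and 6 fell with all 12 right limbs as control (2406 of all rows called), and 13 and 5 with only those 2 groups in the fit (2508). After repeated atrophy, 20 rose and 11 fell without repeated atrophy animal 1 (4468), 16 and 9 without animal 2 (3024), and 18 and 13 without animal 3 (3773).

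Of 18 genes of the transverse tubule and its junction with the reticulum, 4 rose and 5 fell after atrophy, 1 rose after recovery, and 5 rose and 7 fell after repeated atrophy (3 and 7, 1 and 0, 3 and 7 after rescaling). Cacnb1, the intracellular beta subunit of the voltage sensor, went from 177 ± 33.7 CPM in control to 435 ± 158 after atrophy and 591 ± 52.5 after repeated atrophy (log2 change 1.24 and 1.76, adjusted p = 0.0062 and 7.6e-05), where Cacna1s itself was not called. Tmem38b, a potassium channel of the reticulum that supports calcium release, rose by 1.45 and 2.10, and Fkbp1a, the immunophilin that binds the ryanodine receptor, by 1.03 and 1.10. Jph1 and Jph2, the junctophilins that hold tubule and reticulum together, fell after atrophy (-0.79 and -2.06) and after repeated atrophy (-1.24 and -2.94). Dhrs7c, a reductase of the reticulum membrane, had the largest fall of this list, from 288 ± 97.0 CPM in control to 16.4 ± 5.90 after repeated atrophy (-4.01, adjusted p = 8.1e-05). These 6 genes kept their direction and their call after both periods once libraries were rescaled. None of them was called after recovery, when Sypl2, a tubule membrane protein named after its value was seen, rose by 0.97 (adjusted p = 0.032). Ryr1, the release channel itself, is not analysed here.

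Of 9 further genes of calcium uptake and storage, 5 rose after atrophy, 0 were called after recovery, and 5 rose and 2 fell after repeated atrophy (4 and 0, 0 and 0, 3 and 3 after rescaling). Mrln, myoregulin, another peptide inhibitor of the pump, went from 27.4 ± 5.68 CPM in control to 82.0 ± 48.3 after atrophy and 110.2 ± 18.98 after repeated atrophy (1.41 and 1.99, adjusted p = 0.0062 and 8.9e-05). Calr and Canx, the calcium-binding chaperones calreticulin and calnexin, rose by 1.01 and 1.07 after atrophy and by 0.83 and 0.98 after repeated atrophy. Sdf4, a calcium-binding protein of the secretory pathway, rose by 0.82 and 0.72, the second of which was not called after rescaling (0.34, adjusted p = 0.062). Srl and Hrc, the reticulum calcium-binding proteins sarcalumenin and histidine-rich calcium-binding protein, fell by 1.05 and 0.83 after repeated atrophy (adjusted p = 0.0022 and 0.0036).

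Of 19 genes of calcium sensing and of calcineurin or CaMK signalling, 5 rose and 3 fell after atrophy, 0 were called after recovery, and 4 rose and 5 fell after repeated atrophy (2 and 5, 0 and 0, 3 and 7 after rescaling). Rcan1, an inhibitor of the phosphatase calcineurin, went from 105 ± 31.3 CPM in control to 570.2 ± 306 after atrophy and 577 ± 260.4 after repeated atrophy (2.30 and 2.39, adjusted p = 0.0051 and 7.6e-05). Nfatc1, a transcription factor that calcineurin activates, fell by 0.67 and 1.05. Capn2, a calcium-activated protease, rose by 1.26 and 1.33. Of the CaMKII subunits, Camk2b rose by 0.82 and 0.97, the first not called after rescaling (0.45, adjusted p = 0.097), while Camk2a (-0.98 and -1.23) and Camk2g (-0.91 and -0.96) fell.

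Of 7 genes of mitochondrial calcium uptake, 1 rose at the atrophy stage. At recovery 1 rose, and at repeated atrophy 4 did (1 and 2 after rescaling). Mcu, the uniporter pore, rose after recovery from 16.5 ± 2.10 to 30.3 ± 2.42 CPM (0.85, adjusted p = 0.044) and after repeated atrophy to 37.7 ± 15.1 CPM (1.08, adjusted p = 0.0031). Micu2, a regulatory subunit of the uniporter, rose by 0.62 after repeated atrophy (0.24 after rescaling, not called). Of 14 genes of store-operated entry and of export across the surface membrane, 1 rose and 2 fell after atrophy, 3 rose and 1 fell after recovery, and 2 rose and 3 fell after repeated atrophy (0 and 2, 3 and 2, 0 and 5 after rescaling). Stim1, the calcium sensor of the reticulum that opens entry from outside, fell by 0.43 after recovery (adjusted p = 0.049; 0.056 after rescaling), when Cacna1s also fell. Stim2, its homolog, rose by 0.54 after atrophy and by 0.71 after repeated atrophy, and neither was called after rescaling. Slc8a3, a sodium-calcium exchanger, fell by 0.77 and 0.71. Of the surface pumps, Atp2b1 rose by 0.81 after repeated atrophy (0.43 after rescaling, not called) and Atp2b3 fell by 0.81.

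Slow and fast contractile genes were counted beside the paralog ratios. Of 8 slow fibre genes, 4 fell after atrophy, 0 were called after recovery and 4 fell after repeated atrophy. Their summed level was between 2052 and 4607 CPM in control and between 860.1 and 1253 CPM after repeated atrophy. Of 9 fast fibre genes, 2, 1 and 2 fell, and their summed level went from between 143508 and 169737 CPM in control to between 82029 and 106577 CPM after repeated atrophy. The slow-to-fast ratio of the pump was thus higher after repeated atrophy in limbs in which both summed levels were lower, and their part in it was not tested. In bulk tissue, fewer fibres of a type and less RNA in each fibre cannot be told apart.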

How the data were processed

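RNA of 24 TA muscles was sequenced from poly(A)-selected, strand-specific libraries. The authors filtered contaminants with Bowtie2 (2.2.5), aligned reads to rn7 with STAR and made the table in Partek Flow; the counting step and annotation are not given in the sources used here. The deposited values are counts per 1000000 (CPM) for each transcript row, since every column sums to 1000000, although the authors name DESeq2 median-of-ratios scaling, and a scaled unit had been assumed when the tests were chosen. Of 27 value columns, 3 match no sample and were not used. After 28 duplicate rows were dropped, 14243 rows remained, and rows above 0 in at least 3 limbs were tested.

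Values were transformed to log2(CPM + 1), so fold changes of low rows are understated, and compared with limma (3.58.1, R 4.3.3, trended variance, Benjamini-Hochberg over all rows) in 1 fit of the 18 limbs of TTX animals, with sham limbs in fits of their own. Ratios were tested by exact permutation over all splits (Python 3.11.15, numpy 2.4.6). Left and right limbs are paired by animal: their deviations from the group means had a mean r of 0.118 over the 9 TTX animals and 0.744 over the 3 sham animals. These values are not alike. In TTX animals, left limbs were centred on the 3 of their stage and right limbs on all 9. In sham animals, both sides were centred on 3 limbs. Between 87.7% and 89.6% of low values were whole multiples (within 0.02) of what 1 read is worth, so reads were not recovered and no count model was run. The fits were tested on simulated data.

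The members and gene lists were chosen with earlier results of these data known. Pathway genes named are at most 6 a list, taken by the size of their change among those called against control with a mean of at least 10 CPM in 1 group, and 3 transcripts are named for each member by their r with it over the 24 limbs. Of the genes these rules name, 2 are not reported here. Other settings tried were 2 pseudocounts, TMM and quantile scaling, 2 filters, other control limbs, the animal as a fixed or random effect, no variance trend, fits of only 2 groups, and leaving out each limb in turn.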

Additional observations from a re-analysis of the deposited data

Results flagged for a closer look

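In control limbs, Sln had 1 limb far from the rest. The right limb of atrophy animal 3 held 18.2 CPM against a median of 5.20 CPM, a gap that passed Dixon's test. For members this test was run on linear CPM, and not on the log2(CPM + 1) scale of the other tests. Chance alone flags about 1 group in 20, and 26 gaps over 13 items were examined. The same limb had the lowest Pvalb of the control limbs. A level of this size was also seen in a sham animal, at 21.01 CPM on the right and 16.5 CPM on the left.

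The effect against the same control limbs differed between stages, by the test of the difference itself in limma, for 4 members. Casq1 was 1.56 higher after recovery than after atrophy and -1.91 in repeated atrophy relative to recovery (adjusted p = 0.019 and 0.0040). Casq2 was -2.29 in repeated atrophy relative to recovery (adjusted p = 0.0026), with all 3 repeated atrophy limbs below all 3 recovery limbs. Sln was 2.30 in repeated atrophy relative to recovery (adjusted p = 0.018). Jsrp1 was -1.46 in recovery relative to atrophy and 1.46 in repeated atrophy relative to recovery (adjusted p = 0.0033 and 7.7e-04), the limbs not overlapping in either. None of these 6 differences was called once the animal was a block, when 2 and 12 of all 14031 rows were called between these stages.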

How the results depend on the processing

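Of 135 values and counts that answer a comparison, recomputed under other settings with all limbs kept, 120 stayed on their side of the threshold or, for counts, within 1.5 times. The 135 include within-animal differences of the ratios, which have no threshold and were compared by size. They also include counts that were 0 in every setting, 11 between the periods of TTX and 9 in each sham comparison, where few or no rows were called. The rise of Sln after repeated atrophy kept its call in all 13 settings (1 of them, rows summed per symbol, chosen after seeing the data) and with each limb left out. Unless a reason is given, the cause of a change was not tested. With the animal as a replicate block, 0 members were called after atrophy, 0 after recovery, 0 between atrophy and recovery and 0 between recovery and repeated atrophy, where 0, 9, 2 and 12 of all 14031 rows were. With each group's own 3 right limbs as control it was 0 after atrophy and 0 after recovery, where 0 and 49 rows were. These losses cover nearly all rows and are no result about the members. The called count after atrophy was 2 with a pseudocount of 10, 2 in limma without trend and 3 over rows with a mean of at least 10 CPM (which leaves out Pln), where 2869 and 3314 of 14031 rows and 2885 of 6705 were, in place of 3171 of 14031. That filter gave 4 between atrophy and recovery (2573 of 6705 rows, in place of 2505 of 14031). These settings added Atp2a1 after atrophy (adjusted p between 0.0053 and 0.043), and Casq2 after repeated atrophy was added by TMM, quantile scaling and the fit of 2 groups (adjusted p between 0.024 and 0.046). Over all 13 settings, adjusted p ranged from 0.0053 to 0.58 for Atp2a1 after atrophy, from 1.7e-04 to 0.23 for it after repeated atrophy, from 0.0058 to 0.065 for Casq1 after repeated atrophy, and after recovery from 4.3e-04 to 0.15 for Casq2, 0.013 to 0.10 for Cacna1s and 9.2e-04 to 0.13 for Jsrp1.

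Signs turned for changes that were not called. Under TMM, Atp2a2 was -0.32 after atrophy and -0.30 after repeated atrophy, where Pvalb was -0.16, Pln -0.054 and Jsrp1 -0.0066. Under quantile scaling, Atp2a2 was -0.21 after atrophy and -0.21 after repeated atrophy and Pln -0.043 there. With all 12 right limbs, Atp2a2 was -0.010 after atrophy and Stac3 0.029 after repeated atrophy. With the block, as with own right limbs, Atp2a2 was -0.38 after atrophy and 0.044 after recovery, and Stac3 -0.063 after recovery and 0.069 after repeated atrophy. By medians over limbs, the log2 ratio of Atp2a2 to Atp2a1 after repeated atrophy was 1.56 and that of Sln to Pln 2.93 after atrophy and 3.32 after repeated atrophy, none past the threshold (adjusted p = 0.068 each). Within animals, as the block gives it with no test, Casq2 to Casq1 was 1.43 after recovery and Sln to Pln 3.82 after repeated atrophy.

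With 1 limb left out, between 0 and 4 members were called after atrophy, 1 and 3 after recovery, 1 and 3 after repeated atrophy, 1 and 4 between atrophy and recovery, and 0 and 1 between the periods of TTX. After atrophy the count was 0 without atrophy animal 1 or 3, 4 without atrophy animal 2 and 3 without the right limb of atrophy animal 3, where 4, 0, 4415 and 4015 rows were called in place of 3171, so that the whole comparison after atrophy rests on these limbs. It was 1 after recovery without recovery animal 1 or 2 (207 and 487 rows in place of 1084), and 1 after repeated atrophy without repeated atrophy animal 2 (3024 rows in place of 4812). Atp2a2 to Atp2a1 ranged from 0.70 to 1.84 after atrophy and from 1.24 to 1.97 after repeated atrophy. Casq2 to Casq1 ranged from 0.79 to 2.28 after atrophy, 0.69 to 0.99 after recovery and -0.0071 to 0.83 after repeated atrophy. Sln to Pln ranged from 1.74 to 3.10 after atrophy, 0.84 to 2.20 after recovery and 3.14 to 3.56 after repeated atrophy. Among members, Casq2 ranged from -0.033 to 1.24, Stac3 from -0.32 to 0.059 Atp2a2 from -0.27 to 0.33 and Pvalb from -1.48 to -0.19 after atrophy, and Stac3 from -0.11 to 0.012, Atp2a2 from -0.16 to 0.50 and Pvalb from -0.12 to 0.36 after repeated atrophy.

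Groups of 3 limbs bound every comparison with TTX groups, and with 1 sham animal at each time point, time point and animal cannot be told apart. Pln, at 3.26 to 11.2 CPM, had the lowest mean over the 24 limbs, and Sln was lower in single limbs (1.39 CPM). A count model was not run, since whole reads could not be recovered.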

Other observations

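The transcripts whose levels followed each member most closely over the 24 limbs (Pearson r of log2(CPM + 1), given as a description, since limbs share animals, groups and library composition) were as follows. Atp2a1 was followed by Mylk2, the skeletal myosin light chain kinase (r = 0.970), Lmod1 (0.958) and Kcnj12, an inward rectifier potassium channel (0.957). Casq1 was followed by Ak1, adenylate kinase (0.966), and by the respiratory chain subunits Sdhc (0.959) and Ndufs3 (0.954). Pvalb was followed by Klhl23 (0.870), Tpm1, a tropomyosin (0.865), and Mylpf, the fast regulatory myosin light chain (0.864). Cacna1s was followed by Stim1 (0.887), Agpat1 (0.864) and Szrd1 (0.845).

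Jsrp1 was followed by Nfkbib (r = 0.963), Bag6 (0.949) and Aup1 (0.932), and Stac3 by Oip5-as1 (0.912), Tp53inp2 (0.883) and Epdr1 (0.876). Sln was followed by Atrn (0.949), Ppp1r14c (0.945) and Cidea (0.943). Among the slow forms the values were lower: Casq2 was followed by Atp1b1 (0.833), Postn, periostin of the extracellular matrix (0.793), and Actc1, cardiac actin (0.779), Pln by Epc2 (0.796), Ubn2 (0.778) and Azi2 (0.777), and Atp2a2 by Irf2 (0.785) and Adam9 (0.773).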
